A study of Mus musculus with 4 samples.

Results

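Heart ventricles of mice without the receptor P2Y6 were compared with those of wild-type mice after both had received isoproterenol. The comparison covers the 13041 of 46603 genes in the deposited table whose mean level over the 4 libraries of the series was 1 CPM or more, CPM being a gene's share of the library in reads per 1000000. The mice were of the C57Bl6/J background and 8 to 12 weeks old, and were either wild type (WT) or P2Y6-null (KO). They had been given isoproterenol at 50 mg/kg/day, or saline, by intraperitoneal injection on each of 7 days. Every group is 1 library of polyadenylated RNA from ventricles, and whether a library is 1 heart or a pool is not stated. The sources used here do not say how the null allele was made or whether the groups were littermates. The KO isoproterenol and WT isoproterenol libraries form the comparison, and the KO saline and WT saline libraries show the levels of the same genes without isoproterenol.

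P2Y6 is a G protein-coupled receptor for the extracellular nucleotide UDP, and it signals mainly through Gq and phospholipase C. Isoproterenol is an agonist of beta-adrenergic receptors that drives heart rate and contractility, and repeated dosing of mice is used to provoke cardiac hypertrophy with fibrosis. In such hearts fibroblasts deposit collagen and other matrix proteins, while cardiomyocytes turn on genes of the fetal heart and lower those of fat oxidation.

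Levels are given in CPM, always in the order WT saline, KO saline, WT isoproterenol and KO isoproterenol. A ratio is that of reads in KO over WT after TMM scaling, a method that sets the bulk of genes equal between libraries, and the 95% interval for counting error follows it. A gene is called higher or lower in KO when the whole interval lies beyond 1.5-fold. The filter on level includes the KO isoproterenol library, so a gene of low level can be tested only because it is high there. For such a gene a higher call is favoured by the filter. The filter includes the WT isoproterenol library too, and where a gene passed only by being high there, a lower call is favoured. With 1 library per group there is no test and no p-value, so a call says that the libraries differ by more than counting error and not that the genotypes do. Because the tissue is a mix of cells, more cells of a type and more RNA per cell cannot be told apart.

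The targeted gene came first. P2ry6 (ENSMUSG00000048779, GRCm38 chromosome 7, 100937630 to 100974649) stood at 5.11, 0.566, 5.89 and 0.533 CPM, which is 122 reads in the WT and 10 reads in the KO library under isoproterenol. Both KO libraries were low and both WT libraries high, with no overlap. Under isoproterenol KO was lower by 12.2-fold (6.73 to 27.4), and the reads that remain in KO cannot be placed within the gene from totals per gene.

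The libraries held 18771198 reads (KO isoproterenol) to 25637369 reads (WT saline), and 20235 to 20952 genes had at least 1 read. Ventricular genes dominated, with Myl2, the ventricular myosin light chain, at 8075, 8509, 6635 and 4603 CPM beside 77.0, 49.1, 56.6 and 63.9 CPM for its atrial counterpart Myl7. The Y-linked Ddx3y lay between 72.8 and 85.7 CPM in all 4, and Xist was at most 0.195 CPM. Mitochondrially encoded transcripts took 28.9% of reads in the WT isoproterenol library and 22.5% in the KO isoproterenol library, the highest and lowest shares of the 4. These were also the libraries in which the 10 most abundant genes took most (33.2%) and least (26.5%) of the reads. With total counts in place of TMM, each log2 ratio of the isoproterenol pair is higher by 0.21.

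Under isoproterenol 555 of 13041 genes were called higher in KO (4.26%) and 246 lower (1.89%). Total-count scaling gave 7.46% higher and 0.813% lower, so the share of calls that are higher was 69.3% with TMM and 90.2% with total counts. The quartiles of the log2 ratio over all genes were −0.20 and 0.24. In the saline pair 0.245% of genes were higher and 0.199% lower. Among the calls, 393 higher and 119 lower genes were at 2-fold or more, and 67 higher and 17 lower genes at 4-fold or more. A further 1182 genes had a ratio beyond 1.5-fold with an interval that reached inside it. The KO isoproterenol library was the highest of all 4 for 545 of the 555 higher genes and the lowest of all 4 for 222 of the 246 lower genes. A call already sets this library beyond WT isoproterenol, which favours such counts, and the shares over all 13041 genes were not counted. Of the higher genes 543 are protein coding, as are 219 of the lower genes, and the protein-coding share over all 13041 genes was not counted. Calls were most frequent among the 1268 genes at 100 CPM or more (10.2%) and least frequent in the 7178 genes from 10 to 100 CPM (4.76%), with 7.20% at 1 to 3 CPM. The counting interval also narrows with level. Its median half-width was 1.05-fold at 100 CPM or more and 1.65-fold at 1 to 3 CPM, so these shares depend on depth.

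**Figure D1:**
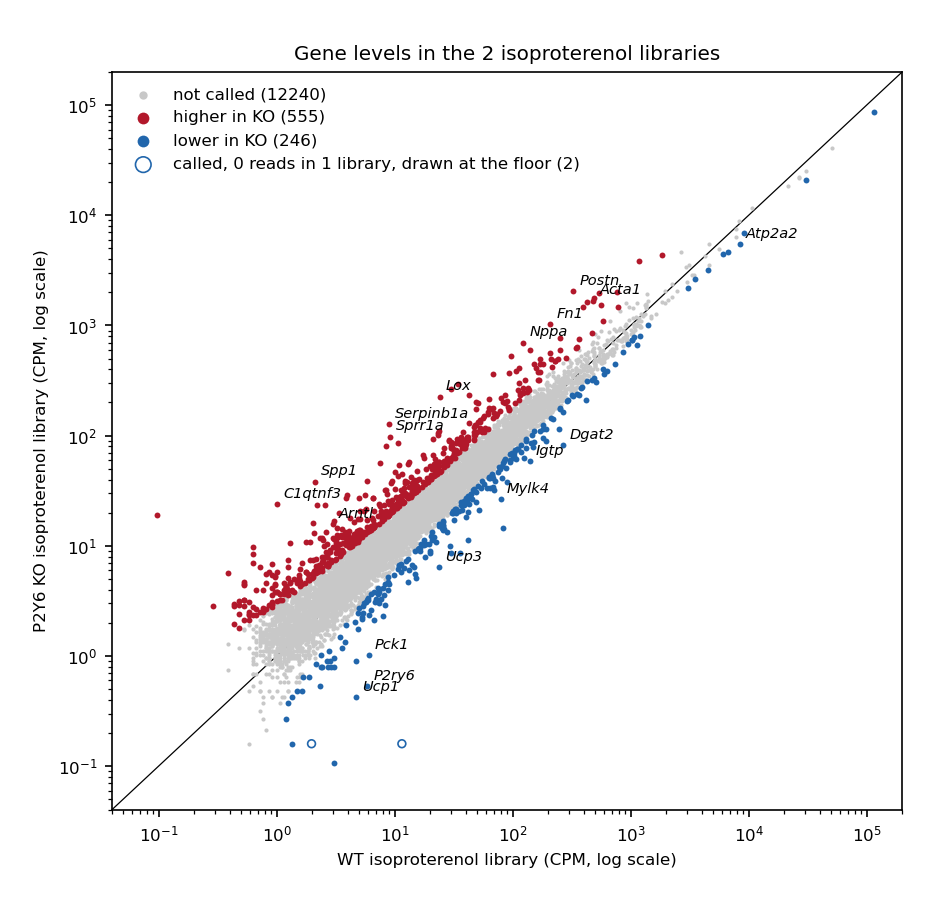
Level of each tested gene in the WT isoproterenol library (x axis, CPM, log scale) against the KO isoproterenol library (y axis, CPM, log scale), with the line of equal CPM (calls use TMM scaling); red points are the 555 genes called higher and blue points the 246 called lower in KO, and the 2 open points have 0 reads in KO and are drawn at 3 reads. Spp1, Lox, Postn and Sprr1a lie far above the line, and P2ry6, Pck1 and Ucp3 below it.

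The 20 higher genes whose intervals lay farthest from no change included the matrix genes Col8a2, Cthrc1, Lox, Ltbp2, P4ha3, Postn, Thbs4, Timp1 and Tnc, which are described below with their groups. C1qtnf3 (chromosome 15), a secreted protein of the C1q/TNF family, was at 0.195, 0.131, 1.01 and 23.9 CPM and 19.9-fold (13.1 to 33.2) higher. Spp1 (ENSMUSG00000029304, GRCm38 chromosome 5, 104435118 to 104441050), which encodes osteopontin, a secreted cytokine and matrix protein, was at 0.663, 0.305, 2.12 and 38.2 CPM, or 15.4-fold (11.5 to 21.6) higher. Serpinb1a (ENSMUSG00000044734, GRCm38 chromosome 13, 32842092 to 32851185), an inhibitor of neutrophil proteases, was at 2.81, 2.09, 8.98 and 127 CPM, or 12.2-fold (10.5 to 14.3) higher. Each of these had its highest level in the KO isoproterenol library and its second highest in the WT isoproterenol library. Sprr1a (ENSMUSG00000050359, GRCm38 chromosome 3, 92483952 to 92485895), a small proline-rich stress protein, followed the same order with 0.156, 0.0871, 9.07 and 97.9 CPM, or 9.30-fold (8.02 to 10.9) higher in KO. Outside the matrix, Lrp8, a receptor for reelin and apolipoprotein E, was 9.22-fold (5.38 to 18.4) higher at 6.93 against 0.627 CPM. Star, which carries cholesterol into mitochondria, was 6.23-fold (4.96 to 8.01) higher at 28.7 against 3.96 CPM. Gpr176, an orphan G protein-coupled receptor, was at 0.312, 0.348, 0.386 and 5.65 CPM, so that the other 3 libraries were alike and the KO isoproterenol library stood apart. The gene with the largest ratio, Rps13-ps1, is a pseudogene of the ribosomal protein gene Rps13 and may share reads with it. It was at 0.195, 9.58, 0.0965 and 18.9 CPM, or 136-fold (46.5 to 1403) higher over 2 reads in WT isoproterenol. Both KO libraries were high, while Rps13 itself was at 109, 88.9, 115 and 109 CPM and not called.

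The lower genes opened with those that were also low in the KO saline library. Trim12a (chromosome 7), a ubiquitin ligase gene of the Trim5 family, was at 8.50, 0, 11.5 and 0 CPM, with 0 reads in both KO libraries, and under isoproterenol, with a floor of 3 reads for KO, was at least 83.6-fold lower. Gvin1, a very large interferon-inducible GTPase, likewise had 0 reads in both KO libraries and 41 reads in WT isoproterenol, lower by at least 14.3-fold. Among genes that were not low in the KO saline library, 3 lay on chromosome 18 beside the interferon-inducible GTPase gene Iigp1. BC023105 was at 85.6, 79.0, 82.5 and 14.5 CPM and 6.56-fold (5.78 to 7.49) lower. Gm4841 was at 28.9, 25.9, 36.1 and 8.58 CPM and 4.87-fold (4.11 to 5.82) lower. F830016B08Rik was at 22.97, 26.2, 30.0 and 8.58 CPM and 4.04-fold (3.40 to 4.85) lower. For each of them the KO isoproterenol library alone was low. Related genes lie side by side there, so the split of reads among them is uncertain.

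Pck1 and Ucp1 also stood among the leading lower genes and are given below with the adipocyte markers, of which 4 of 9 were lower. Dgat2, Ces1d and Ucp3 had intervals closer to no change than these. Dgat2, which makes triglyceride in its last step, was at 357, 241, 267 and 82.1 CPM and 3.76-fold (3.56 to 3.98) lower. Ces1d, a carboxylesterase that splits triglyceride, was at 118, 103, 41.8 and 11.2 CPM and 4.32-fold (3.72 to 5.05) lower. Ucp3, a mitochondrial carrier, was at 74.9, 123, 23.6 and 6.39 CPM and 4.26-fold (3.49 to 5.26) lower. For Ces1d and Ucp3 the WT isoproterenol library was itself below both saline libraries, and the KO isoproterenol library was lowest. The muscle chloride channel Clcn1 was at 12.2, 12.2, 6.76 and 2.13 CPM and 3.64-fold (2.57 to 5.36) lower. The water channel Aqp4 was at 9.48, 5.79, 15.2 and 5.06 CPM and 3.45-fold (2.75 to 4.41) lower. For Aqp4 the WT isoproterenol library was the high one, whereas for Clcn1 it lay between the saline libraries and KO isoproterenol.

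**Figure D2:**
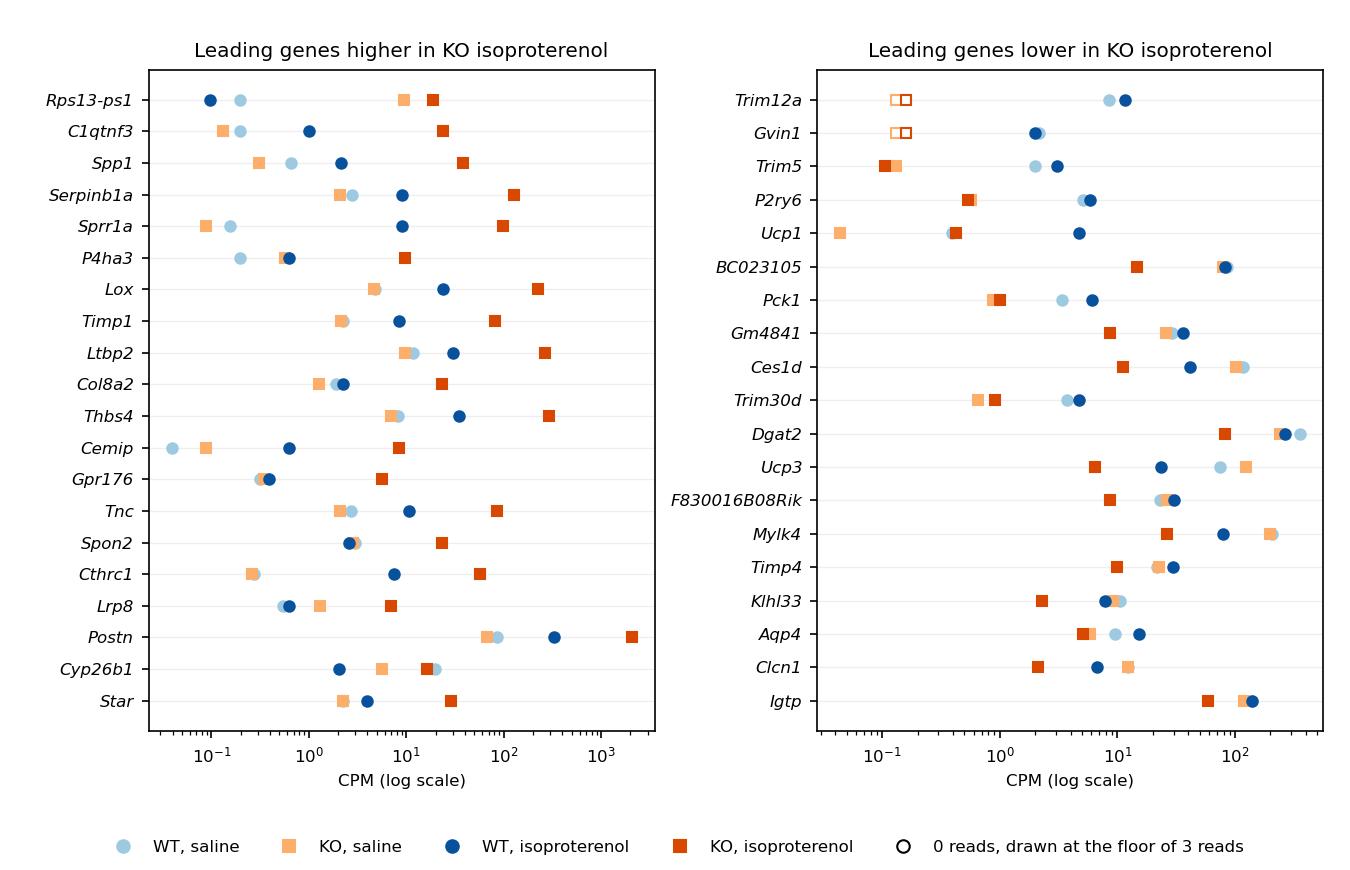
Level (CPM, log scale) of the leading genes higher and lower in the KO isoproterenol library, by the distance of their interval from no change, in each of the 4 libraries; circles are WT, squares KO, light colours saline, dark colours isoproterenol, and open symbols 0 reads drawn at the floor of 3 reads. Among the higher genes the dark KO square lies farthest right for all but Cyp26b1, which was highest in WT saline.

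In 50 lists of genes by function, chosen with earlier results of these data known, 746 members were tested. The median log2 ratio over all 13041 genes was −0.00, and 34 of the 50 lists had a median above 0. With total counts 40 did, and the medians of 6 lists changed sign with a scaling: adrenergic, calcium handling, glycolysis, smooth muscle, endothelial and MHC genes. Since no list was tested against other genes, counts and medians are to be read beside the 4.26% and 1.89% of all genes.

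**Figure D3:**
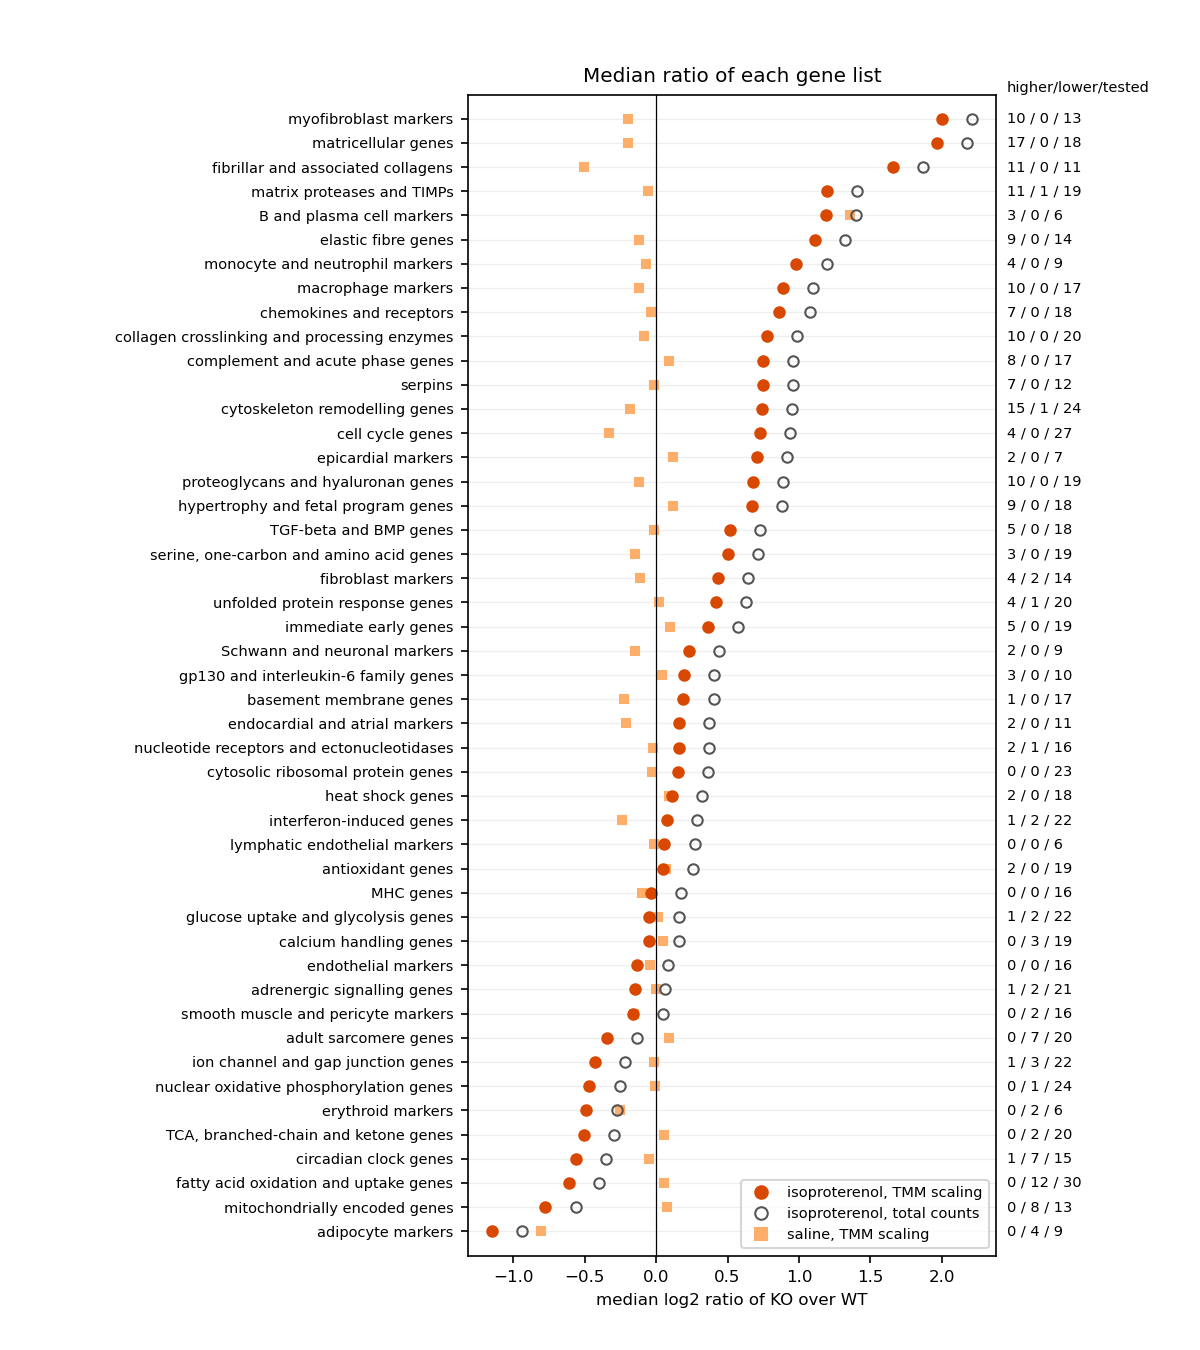
Median log2 ratio of KO over WT (x axis) for each list with at least 3 tested genes: filled circles are the isoproterenol pair with TMM scaling, open circles the same pair with total counts, squares the saline pair. Numbers at the right are members higher, lower and tested under isoproterenol. Myofibroblast, matricellular and collagen lists lie at the top with saline medians below 0, and adipocyte, mitochondrially encoded and fatty acid oxidation lists at the bottom.

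Fibrillar collagens are the load-bearing fibres of scar and interstitial matrix. All 11 tested genes of the list of fibrillar and associated collagens were higher in KO under isoproterenol (median 1.66, from 0.77 to 3.17). The other scalings raise every ratio of the pair, so they could not undo these calls. Col1a1, a chain of type I collagen, was at 198, 132, 424 and 1634 CPM and 3.33-fold (3.25 to 3.41) higher. Col3a1, of type III collagen, was at 478, 300.1, 1172 and 3815 CPM and 2.81-fold (2.77 to 2.85) higher. In both genes the KO saline library was the lowest of the 4 and the KO isoproterenol library the highest. Col8a2, of the short-chain type VIII collagen, was at 1.91, 1.26, 2.22 and 23.4 CPM and 9.03-fold (6.72 to 12.6) higher, and Col12a1, which coats fibrils, was 5.72-fold (4.73 to 7.02) higher. The list's summed level was 1237, 840.3, 2686 and 9238 CPM. Its median under saline was −0.50, with 0 of 11 called.

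Matricellular proteins are secreted into the matrix of injured tissue and act on cells rather than bear load. Of 18 tested, 17 were higher and 0 lower (median 1.97), and the one not called, Cyr61, stood at 48.8, 51.4, 41.9 and 69.6 CPM and was called higher with total counts. Postn (ENSMUSG00000027750, GRCm38 chromosome 3, 54361109 to 54391037), encoding periostin of activated fibroblasts, was at 85.3, 66.8, 328 and 2062 CPM and 5.43-fold (5.29 to 5.57) higher. It was the most abundant gene among the 20 leading higher ones. Fn1, fibronectin, was at 105, 76.1, 209 and 1035 CPM and 4.27-fold (4.14 to 4.42) higher. In both, WT isoproterenol lay above the saline libraries and KO isoproterenol far above WT isoproterenol. Thbs4, a thrombospondin, was at 8.27, 6.97, 34.8 and 292 CPM and 7.25-fold (6.72 to 7.86) higher. Tnc, tenascin C, was at 2.73, 2.09, 10.8 and 85.5 CPM and 6.85-fold (5.96 to 7.93) higher. Cthrc1, a secreted protein of injured vessels and hearts, was at 0.273, 0.261, 7.53 and 56.9 CPM and 6.52-fold (5.52 to 7.78) higher. These 3 followed the order of Postn. Comp, cartilage oligomeric matrix protein, was at 10.5, 7.75, 10.04 and 46.6 CPM and 3.999-fold (3.44 to 4.68) higher, with WT isoproterenol no higher than WT saline. Ctgf, a target of TGF-beta and of mechanical stress, was at 40.9, 45.9, 49.3 and 203 CPM and 3.55-fold (3.31 to 3.81) higher, and here too KO isoproterenol stood apart from the other 3 libraries.

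Enzymes that modify and crosslink collagen had 10 of 20 genes higher and 0 lower (median 0.77; 14 higher with total counts). Of the 20, 20 had a ratio above 1 with TMM, and total counts raise every ratio further. Lox (ENSMUSG00000024529, GRCm38 chromosome 18, 52516067 to 52529867), lysyl oxidase, which crosslinks collagen and elastin, was at 4.84, 4.66, 24.0 and 227 CPM and 8.13-fold (7.42 to 8.95) higher. Of its family, Loxl3 was 3.75-fold (3.29 to 4.30) higher, Loxl1 2.27-fold (2.12 to 2.43) and Loxl2 1.88-fold (1.73 to 2.05), while Loxl4, at 4.16 against 2.08 CPM, was not called. Collagen prolyl hydroxylase has 3 catalytic subunits. P4ha3 was at 0.195, 0.566, 0.627 and 9.80 CPM and 13.03-fold (7.70 to 25.8) higher. P4ha1 was at 45.1, 44.5, 37.0 and 77.4 CPM and 1.80-fold (1.65 to 1.97) higher, and P4ha2 at 47.1, 50.6, 44.6 and 60.8 CPM was not called. The subunit with the fewest reads thus had the largest ratio. Serpinh1, the collagen chaperone HSP47, was at 218, 153, 215 and 422 CPM and 1.70-fold (1.64 to 1.76) higher.

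Elastic fibres consist of elastin on a scaffold of microfibrils. The list had 9 of 14 genes higher and 0 lower (median 1.11). Eln, elastin itself, was at 72.2, 39.8, 86.4 and 234 CPM, 2.34-fold (2.21 to 2.47) higher under isoproterenol, although the KO saline library was the lowest of the 4. The fibrillin Fbn1 was at 114, 94.8, 207 and 566 CPM (2.36-fold, 2.27 to 2.44, higher) and the microfibril protein Mfap5 at 24.8, 20.4, 51.3 and 197 CPM (3.32-fold, 3.10 to 3.56, higher). Among the latent TGF-beta binding proteins Ltbp2 was at 11.8, 9.67, 30.4 and 264 CPM and 7.50-fold (6.91 to 8.17) higher and Ltbp3 1.80-fold (1.69 to 1.92) higher, whereas Ltbp4 (556, 483, 494 and 573 CPM) and Ltbp1 (72.6, 66.2, 73.4 and 71.6 CPM) were not called.

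Proteoglycans and hyaluronan genes had 10 of 19 higher and 0 lower (median 0.68). Bgn, biglycan, a small leucine-rich proteoglycan, was at 331, 313, 557 and 1534 CPM and 2.38-fold (2.33 to 2.43) higher. Aspn, asporin, of the same family, was at 33.1, 27.6, 63.7 and 217 CPM and 2.94-fold (2.76 to 3.13) higher. Vcan, versican, a large proteoglycan that binds hyaluronan, was at 23.3, 20.5, 33.5 and 93.8 CPM and 2.42-fold (2.21 to 2.64) higher. In each the isoproterenol libraries lay above the saline libraries and KO above WT. Cemip, which binds and breaks down hyaluronan, was at 0.0390, 0.0871, 0.627 and 8.47 CPM and 11.3-fold (6.63 to 22.4) higher. Like C1qtnf3, P4ha3 and Gpr176 above and Tnnt3 and Nek2 below, it passed the filter on level only through the KO isoproterenol library. Other genes may have passed the same way. Dcn, decorin, at 508, 507, 561 and 887 CPM, was called only with total counts. Of the basement membrane genes 1 of 17 was higher and 0 lower (Col15a1, 2.02-fold, 1.95 to 2.10), or 3 with total counts, and the median was 0.19. The laminins Lamb2 (481, 438, 493 and 529.6 CPM) and Lama5 (162, 145, 177 and 191 CPM) were not called.

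Matrix proteases and their tissue inhibitors (TIMPs) had 11 of 19 genes higher and 1 lower (median 1.20). Timp1 was at 2.26, 2.13, 8.40 and 80.7 CPM and 8.28-fold (7.09 to 9.77) higher, and Timp4, a TIMP abundant in heart, was at 21.7, 22.7, 29.5 and 9.96 CPM and 3.43-fold (2.91 to 4.07) lower. These inhibitors lay at opposite ends of the list, and Timp2 (131, 112, 124 and 184 CPM) and Timp3 (173, 148, 157 and 155 CPM) were not called. Of the proteases, the membrane-bound Mmp14 was at 20.5, 16.2, 29.8 and 88.1 CPM and 2.55-fold (2.32 to 2.80) higher. The gelatinase Mmp2, which Mmp14 activates, was at 91.6, 68.4, 113 and 299.5 CPM and 2.30-fold (2.19 to 2.41) higher. The other gelatinase, Mmp9, was near 1 CPM in every library and not called. Adam12, an ADAM protease of growing mesenchyme, was 3.39-fold (2.50 to 4.73) higher, and Adamts4, an aggrecanase, 4.86-fold (3.08 to 8.31) higher.

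Markers of fibroblasts were read beside the matrix genes. Of 14 fibroblast markers 4 were higher and 2 lower (median 0.43; 6 and 0 with total counts), with a summed level of 2838, 2518, 3028 and 4648 CPM and 0 markers at 0 reads in both isoproterenol libraries. Of the 4 higher markers Col1a1, Mfap4 and Lum are themselves matrix genes, and the other is Cd248. Pdgfra, a receptor that defines cardiac fibroblasts, was at 47.4, 46.8, 49.7 and 76.7 CPM, and the fibroblast transcription factor Tcf21 at 7.18, 7.75, 9.17 and 13.6 CPM, neither called. Gsn, gelsolin, was lower (1.61-fold, 1.58 to 1.64) and Scara5, a ferritin receptor, too (1.98-fold, 1.71 to 2.29), neither of them with total counts. Myofibroblast markers, a list that shares Postn, Lox and other genes with the matrix lists, had 10 of 13 higher (median 2.0, summed level 458, 356, 828 and 3905 CPM). Meox1, a transcription factor of activated fibroblasts, was at 17.1, 12.6, 17.4 and 67.1 CPM and 3.33-fold (2.96 to 3.76) higher. The contractile markers were not called: Acta2, smooth muscle actin, was at 205, 146, 176 and 172 CPM and Tagln at 53.1, 47.5, 70.6 and 89.6 CPM. The part of fibroblast number in the matrix values was not tested.

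Growth factors of the TGF-beta and BMP family had 5 of 18 genes higher and 0 lower (median 0.52; 9 higher with total counts). Tgfb2 was at 13.7, 13.1, 12.1 and 30.2 CPM and 2.16-fold (1.86 to 2.52) higher. Tgfb3 was at 20.2, 17.7, 25.9 and 69.9 CPM and 2.33-fold (2.11 to 2.58) higher, whereas Tgfb1, at 21.1, 20.4, 22.7 and 31.2 CPM, was not called. Fstl1, a secreted follistatin-like protein, was at 143, 113, 251 and 773 CPM and 2.66-fold (2.58 to 2.75) higher, and the ligand gene Gdf6 at 0.741, 1.39, 1.79 and 10.9 CPM and 5.20-fold (3.69 to 7.68) higher. Among receptors and inhibitors, Tgfbr1 (23.2, 22.9, 23.9 and 41.2 CPM) and Tgfbr2 (70.8, 63.6, 72.1 and 119 CPM) were called only with total counts, and Smad7 (19.0, 15.3, 12.5 and 14.8 CPM) under neither scaling.

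Cytokines of the interleukin-6 family signal through gp130 (Il6st) and Stat3. Of 10 tested genes 3 were higher and 0 lower (median 0.20). Beside Sprr1a, a target gene of this pathway in heart muscle, Socs3, the feedback inhibitor, was at 3.47, 4.05, 3.62 and 8.90 CPM and 2.12-fold (1.61 to 2.83) higher. Osmr, the oncostatin M receptor, was at 21.9, 23.6, 22.0 and 46.6 CPM and 1.83-fold (1.63 to 2.05) higher. In both KO isoproterenol stood above 3 like libraries. Il6st (211, 222, 180.4 and 233 CPM) and Stat3 (162, 156, 158 and 187 CPM) were not called, and the ligand genes Il6, Il11, Lif, Clcf1 and Osm were below 1 CPM on average and not tested. The promoter of Sprr1a is shown because this gene led the list. Its RefSeq stretch on GRCm38.p6 (chr3:92485971-92486047, minus strand) holds a pair of matches, in capitals, to the AP-1 motif TGANTCA.
Sprr1a: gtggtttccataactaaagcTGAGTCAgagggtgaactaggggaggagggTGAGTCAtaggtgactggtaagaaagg
Within 250 bases before the start, on either strand, this motif was found in 6.75% of 32851 promoters, in 4.53% of promoters of tested genes, in 9.82% of promoters of the higher genes and in 7.25% of those of the lower genes. Here and below, the tested, higher and lower genes have 12479, 499 and 193 promoter entries, and a gene can have more than 1. The promoters shown are among them, and differences between the shares were not tested. A match is a description of letters and not of a bound factor.

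Genes of hypertrophy and of the fetal heart had 9 of 18 higher and 0 lower (median 0.67; 11 higher with total counts). Nppa, atrial natriuretic peptide, was at 68.5, 65.3, 123 and 700.5 CPM and 4.93-fold (4.73 to 5.15) higher. Nppb, the other cardiac natriuretic peptide, was at 73.3, 127, 42.9 and 232 CPM and 4.66-fold (4.34 to 5.02) higher. For Nppb the WT isoproterenol library was the lowest of the 4, and both KO libraries lay above both WT libraries. Acta1, skeletal actin, followed the same split between genotypes at 398, 807, 481 and 1682 CPM (3.02-fold, 2.95 to 3.09, higher). Xirp2, a protein of the intercalated disc, was at 372, 506, 397 and 1472 CPM and 3.20-fold (3.12 to 3.28) higher. Rcan1, an inhibitor of calcineurin that is itself a calcineurin target, was at 65.8, 76.8, 65.5 and 176 CPM and 2.32-fold (2.17 to 2.47) higher. In both the WT isoproterenol level was near that of WT saline. Myh7, the slow beta-myosin heavy chain, was at 209.9, 253, 163 and 323 CPM (1.71-fold, 1.64 to 1.78, higher), beside 30569, 29949, 27006 and 22219 CPM for the adult alpha-myosin heavy chain Myh6, which was not called. Ankrd1, at 867, 1462, 2678 and 4600.1 CPM, was called only with total counts, and Actc1, cardiac actin, at 9708, 9345, 10762 and 11725 CPM under neither.

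The Acta1 promoter is shown because Acta1 was called higher in both pairs and its promoter holds a CArG box, the motif of serum response factor, in capitals (chr8:123894819-123894868, minus strand, GRCm38.p6, RefSeq).
Acta1: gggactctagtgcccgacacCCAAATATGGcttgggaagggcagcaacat
The CArG box was found in 1.47% of all promoters, in 1.20% of those of tested genes, in 2.61% of those of the higher genes and in 1.04% of those of the lower genes.

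Adult sarcomere genes had 0 of 20 higher and 7 lower (median −0.35), of which 2 were lower with total counts. Those 2 were Mylk4, a myosin light chain kinase, at 205, 199, 79.3 and 26.4 CPM (3.48-fold, 3.15 to 3.86, lower), and Tcap, the titin cap of the Z-disc, at 1181, 1097, 1144 and 659 CPM (2.01-fold, 1.97 to 2.06, lower). For Mylk4 the WT isoproterenol library lay between the saline libraries and KO isoproterenol. The other 5 were Myl2, Myl3, Tnni3, Pln and Myh7b, with log2 ratios from −0.65 to −0.83. Pln is a gene of the sarcoplasmic reticulum and is counted again among the calcium handling genes below. Titin (Ttn, 3998, 4220, 4268 and 4294 CPM), cardiac troponin T (Tnnt2, 7173, 7434, 7779 and 7504 CPM) and myosin-binding protein C (Mybpc3, 4062, 4525, 4664 and 5452 CPM) were not called.

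Of 19 genes that handle calcium 3 were lower and 0 higher, with a median of −0.05 that became 0.16 with total counts. Atp2a2, the calcium pump SERCA2 of the sarcoplasmic reticulum, was at 13826, 13804, 8441 and 5494 CPM and 1.78-fold (1.77 to 1.79) lower. Hrc, a calcium-binding protein of the same store, was at 1093, 1184, 744 and 444 CPM and 1.94-fold (1.89 to 1.99) lower, and Pln, phospholamban, the inhibitor of the pump, at 6060.4, 5787, 6047 and 4435 CPM and 1.58-fold (1.56 to 1.59) lower with TMM only. The release channel Ryr2 (1347, 1388, 1340.3 and 1445 CPM), the store protein Casq2 (1009, 1013, 976 and 1111 CPM) and the exchanger Slc8a1 (148, 143, 191 and 229 CPM) were not called.

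Ion channel and gap junction genes had 1 of 22 higher and 3 lower (median −0.43). Kcnip2, the subunit that shapes the transient outward current, was at 218, 196, 126 and 62.8 CPM and 2.33-fold (2.17 to 2.49) lower. Kcnv2, a silent potassium channel subunit, was at 9.71, 13.2, 2.90 and 0.799 CPM and 4.09-fold (2.35 to 7.96) lower. Both were lower in WT isoproterenol than in WT saline and lowest in KO isoproterenol. Scn4b, a beta subunit of sodium channels, was at 44.6, 83.6, 16.1 and 9.54 CPM and 1.95-fold (1.62 to 2.35) lower with TMM only. Gja1, the gap junction protein connexin 43, was at 525, 488, 476 and 584 CPM and not called.

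Fatty acids are the main fuel of the adult heart. All 30 genes of fatty acid oxidation and uptake had a ratio below 1, with 12 called lower, 0 higher and a median of −0.61, or 6 lower and −0.40 with total counts. Hadh, a dehydrogenase of beta-oxidation, was at 619, 621, 509 and 309 CPM and 1.91-fold (1.85 to 1.97) lower. Acaa2, the thiolase, was at 757, 754, 593 and 362 CPM and 1.90-fold (1.84 to 1.96) lower. Ech1, an isomerase of unsaturated acyl chains, was at 1022, 991, 629.7 and 384 CPM and 1.90-fold (1.84 to 1.95) lower. In these 3 genes the saline libraries were nearly equal, WT isoproterenol was lower and KO isoproterenol lowest. Pdk4, which restrains glucose oxidation when fat is burnt, was at 537, 765, 153 and 87.2 CPM and 2.04-fold (1.92 to 2.16) lower. Cd36, the fatty acid transporter (1579, 1795, 1271 and 1231 CPM), and Fabp3, the binding protein (1751, 1844, 1068 and 1039 CPM), were not called.

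Genes of the TCA cycle, branched-chain and ketone use had 2 of 20 lower and 0 higher (median −0.50; 0 lower with total counts): Idh2, at 1506, 1465, 1214 and 804 CPM, and Acat1, at 516, 534, 423 and 313 CPM. Nuclear oxidative phosphorylation genes had 1 of 24 lower, Cox7a1 at 562, 521, 587 and 401 CPM, and 0 with total counts, yet all 24 had a ratio below 1 (median −0.47, from −0.76 to −0.35). Glucose uptake and glycolysis had a median of −0.05, or 0.16 with total counts, with 1 of 22 higher (Pfkp, a phosphofructokinase, 72.4, 74.3, 90.9 and 182 CPM, 1.73-fold, 1.63 to 1.83) and 2 lower. The lower genes were Pfkfb1, a regulator of glycolysis, at 12.0, 14.02, 8.88 and 3.94 CPM (2.60-fold, 1.98 to 3.46), and the insulin-responsive glucose transporter Slc2a4 at 435, 418, 493 and 332 CPM (1.72-fold, 1.66 to 1.77, with TMM only). Gapdh was at 1988, 2025, 2932 and 3378 CPM and Ldha at 563, 504, 637 and 737 CPM, neither called.

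Of the 13 mitochondrially encoded genes 8 were lower and 0 higher (median −0.78; 4 lower with total counts). The most abundant transcript of both libraries, mt-Co1, a subunit of cytochrome oxidase, was 1.52-fold (1.52 to 1.53) lower with TMM and not called with total counts. The subunit gene of cytochrome b, mt-Cytb, was at 41439, 45437, 51306 and 40816 CPM and not called. The log2 ratios farthest from 0 belonged to mt-Nd4l (−1.67), mt-Co3 (−1.32) and mt-Co2 (−1.14), which lie below 100 CPM in every library. Mitochondrial genes have near-identical copies in the nuclear genome, so the counts of these low genes are uncertain.

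The drug acts on beta-adrenergic receptors, and the gene of the main cardiac one was not called. Adrenergic signalling genes had 1 of 21 higher and 2 lower, with a median of −0.15 that became 0.06 with total counts. Adrb1, the main cardiac beta receptor, was at 21.1, 18.5, 12.3 and 14.4 CPM, and both isoproterenol libraries lay below both saline libraries. Grk5, a kinase that turns off activated receptors, was at 27.1, 25.5, 28.0 and 62.7 CPM and 1.93-fold (1.75 to 2.14) higher. Adra1a, an alpha-1 receptor coupled to Gq, was at 12.3, 13.9, 6.95 and 3.30 CPM and 2.43-fold (1.80 to 3.34) lower. The cyclase Adcy6 was at 227, 197, 253 and 176 CPM and 1.66-fold (1.59 to 1.74) lower with TMM only.

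Nucleotide receptors, channels and ectonucleotidases had 2 of 16 higher and 1 lower, the lower one being P2ry6 (median 0.16). Enpp1, which splits ATP outside the cell to AMP and pyrophosphate, was at 8.58, 7.58, 11.5 and 44.7 CPM and 3.36-fold (2.91 to 3.90) higher. Panx1, a channel that releases nucleotides, was at 1.76, 1.83, 3.23 and 9.59 CPM and 2.55-fold (1.92 to 3.44) higher. The other pyrimidine-sensing receptors were not called or had no reads: P2ry2, for ATP and UTP, was at 34.1, 41.8, 26.4 and 33.5 CPM, P2ry14, for UDP sugars, at 5.69, 4.31, 5.16 and 4.42 CPM, and P2ry4 had 0 reads in all 4 libraries. The ADP receptor P2ry1 was at 20.5, 19.6, 19.0 and 15.0 CPM and not called.

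Immediate early genes, which answer stimuli within minutes, had 5 of 19 higher and 0 lower (median 0.36). Egr1 was at 24.6, 28.4, 11.5 and 28.8 CPM (2.16-fold, 1.85 to 2.52, higher), with WT isoproterenol as the low library and the other 3 close together. Atf3, at 6.87, 6.401, 2.85 and 8.79 CPM (2.65-fold, 1.97 to 3.65, higher), was likewise lowest in WT isoproterenol and highest in KO isoproterenol. Myc, at 2.30, 3.66, 2.08 and 5.75 CPM (2.38-fold, 1.67 to 3.49, higher), had both KO libraries above both WT libraries. Egr2, at 1.13, 1.26, 1.25 and 6.39 CPM (4.34-fold, 2.86 to 7.01, higher), was high in KO isoproterenol alone. Nr4a1, at 60.3, 41.4, 9.70 and 14.1 CPM, was lower in both isoproterenol libraries than in saline and not called between them.

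In the circadian clock, Clock and Bmal1 (Arntl) turn on the Per, Cry and Nr1d genes and the PAR bZip factors Dbp, Tef and Hlf, whose products close the loop. Of 15 clock genes 1 was higher and 7 lower (median −0.56), or 2 and 4 with total counts. Arntl (ENSMUSG00000055116, GRCm38 chromosome 7, 113207465 to 113314126) was at 4.56, 6.49, 2.99 and 15.7 CPM and 4.51-fold (3.44 to 6.07) higher, and its partner Npas2, at 3.16, 2.92, 2.65 and 6.29 CPM, was called only with total counts. The lower genes are targets or repressors of these activators. Per1 was at 87.1, 66.5, 67.6 and 34.0 CPM and 2.30-fold (2.10 to 2.53) lower. Dbp was at 89.6, 83.7, 88.1 and 50.98 CPM and 1.9998-fold (1.85 to 2.17) lower, and Hlf at 46.1, 33.2, 40.2 and 18.1 CPM and 2.57-fold (2.26 to 2.92) lower. Ciart, a repressor of the clock, was at 17.1, 14.3, 18.0 and 7.99 CPM and 2.61-fold (2.16 to 3.18) lower. For these 4 the KO isoproterenol library was the lowest of all, and for Arntl the highest. Per2, Per3 and Tef were lower with TMM only, with log2 ratios of −0.86, −0.89 and −0.86, and Nr1d1 (153, 152, 131 and 105 CPM), Nr1d2, Cry1, Cry2 and Clock were not called. The hour at which each heart was taken is not stated.

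**Figure D4:**
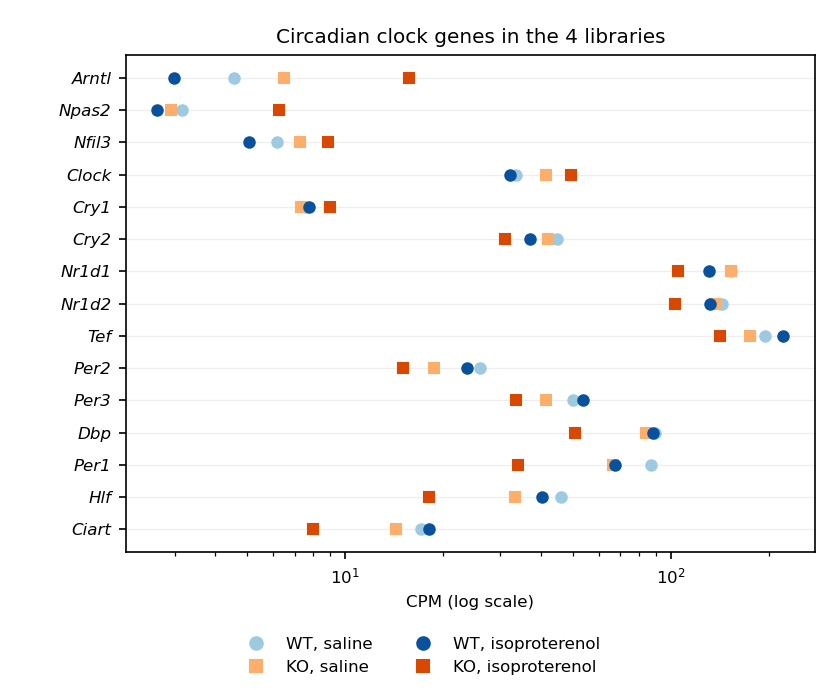
Level (CPM, log scale) of the 15 clock genes in the 4 libraries, ordered by the log2 ratio under isoproterenol; circles are WT, squares KO, light colours saline and dark colours isoproterenol. The KO isoproterenol square lies farthest right for Arntl and farthest left for Ciart, Hlf, Per1 and Dbp.

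Of the 7 lower clock genes 6 have a promoter entry, and in 3 of these, Per1, Ciart and Tef, it holds the E-box CACGTG, the motif that Clock and Bmal1 bind. No E-box lay in this window for Dbp, Hlf or Per3, nor in the other entry of Per1. The stretches with the E-box are shown with it in capitals. All are RefSeq stretches on GRCm38.p6 before the start: Per1 chr11:69098763-69098808 (plus strand), Ciart chr3:95882247-95882364 (minus strand), and Tef, which has 2 entries, chr15:81802526-81802571 and chr15:81811256-81811301 (plus strand).
Per1: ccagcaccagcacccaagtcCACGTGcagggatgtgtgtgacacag
Ciart: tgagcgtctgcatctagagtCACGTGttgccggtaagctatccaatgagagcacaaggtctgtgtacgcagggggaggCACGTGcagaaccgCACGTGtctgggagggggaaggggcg
Tef, first entry: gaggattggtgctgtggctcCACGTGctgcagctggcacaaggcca
Tef, second entry: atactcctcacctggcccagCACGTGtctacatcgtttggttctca
The Ciart stretch holds 3 E-boxes and each of the others 1. Within 250 bases before the start the E-box was found in 6.02% of all promoters, 8.18% of those of tested genes, 5.41% of those of the higher genes and 6.22% of those of the lower genes.

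Of 27 cell cycle genes 4 were higher and 0 lower (median 0.73), but 12 were higher with total counts. Cdk1, the kinase that drives mitosis, was at 1.64, 1.26, 1.79 and 5.81 CPM and 2.78-fold (1.92 to 4.20) higher. Top2a, the topoisomerase of dividing cells, was at 6.01, 3.18, 8.06 and 18.6 CPM and 1.99-fold (1.65 to 2.41) higher, and Cdkn1a, the inhibitor p21, at 15.7, 12.4, 26.3 and 52.2 CPM and 1.72-fold (1.54 to 1.91) higher. Mki67 was at 8.93, 4.27, 9.80 and 19.2 CPM, with the KO saline library lowest and the KO isoproterenol library highest, and was called with total counts. Enzymes of serine, one-carbon and amino acid synthesis had 3 of 19 higher and 0 lower (median 0.50). Mthfd2, of the mitochondrial folate cycle, was at 2.85, 3.22, 2.32 and 11.8 CPM and 4.35-fold (3.20 to 6.13) higher. Psat1, of serine synthesis, was at 3.32, 2.57, 2.17 and 5.81 CPM and 2.29-fold (1.62 to 3.35) higher. Pycr1, which makes proline, was at 2.07, 1.74, 2.65 and 7.88 CPM and 2.55-fold (1.87 to 3.56) higher. In these 3 genes KO isoproterenol was high and the other libraries lay close together.

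Genes of the unfolded protein response, which fold proteins for secretion, had 4 of 20 higher and 1 lower (median 0.42), or 9 and 0 with total counts. The disulfide isomerases Pdia3 (139, 139, 137 and 259 CPM, 1.64-fold, 1.56 to 1.71), Pdia4 (30.2, 29.9, 27.7 and 57.8 CPM, 1.80-fold, 1.63 to 1.997) and Pdia6 (81.6, 72.2, 57.9 and 118 CPM, 1.76-fold, 1.64 to 1.89) were higher, as was Sdf2l1. Hspa5, the central chaperone BiP, at 477, 492, 307 and 432 CPM, and the stress factor Ddit3, at 16.7, 14.5, 20.8 and 22.5 CPM, were not called, and Herpud1, of protein degradation, was lower with TMM only. For each of the isomerases the KO isoproterenol library was the high one. Heat shock genes had 2 of 18 higher (median 0.11): Hspb1 at 97.5, 118, 73.2 and 159 CPM (1.87-fold, 1.76 to 1.99) and Hsp90aa1 at 84.5, 93.1, 78.0 and 166 CPM (1.84-fold, 1.73 to 1.96). Antioxidant genes had 2 of 19 higher (median 0.05): Gpx3, the plasma glutathione peroxidase, at 146, 153, 151 and 443 CPM (2.54-fold, 2.44 to 2.65), and Hmox1, heme oxygenase 1, at 7.57, 8.80, 9.75 and 20.7 CPM (1.83-fold, 1.54 to 2.18). Cytosolic ribosomal protein genes had 0 of 23 called (median 0.15), or 1 higher with total counts.

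Genes of cytoskeleton remodelling had 15 of 24 higher and 1 lower (median 0.74). The beta-tubulins Tubb3 (1.01, 0.871, 1.30 and 10.6 CPM, 6.92-fold, 4.69 to 10.9) and Tubb2b (2.61, 2.003, 2.08 and 13.2 CPM, 5.42-fold, 3.95 to 7.76) had the largest ratios, with KO isoproterenol apart from the other 3 libraries. Anxa2, an annexin that links membranes to actin, was at 71.8, 60.1, 82.4 and 204 CPM (2.13-fold, 2.02 to 2.26, higher), and Vim, the intermediate filament vimentin of mesenchymal cells, at 269.9, 200.4, 348 and 624 CPM (1.55-fold, 1.504 to 1.60, higher). The 1 lower member was the alpha-tubulin Tuba4a, at 507, 508, 421 and 213 CPM (2.29-fold, 2.21 to 2.38, lower), whereas Tuba1a was at 67.1, 55.6, 53.0 and 117 CPM and 1.91-fold (1.77 to 2.05) higher.

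Macrophage markers had 10 of 17 higher and 0 lower (median 0.88), with a summed level of 414, 369, 387 and 769.6 CPM and 0 markers at 0 reads in both isoproterenol libraries. Lgals3, galectin 3 of activated macrophages, was at 4.10, 3.53, 10.96 and 54.6 CPM and 4.29-fold (3.72 to 4.99) higher. Trem2, a receptor for lipids, was at 2.15, 1.87, 4.54 and 16.6 CPM and 3.14-fold (2.50 to 4.02) higher. Adgre1, the F4/80 antigen, was at 22.1, 17.4, 18.6 and 50.0 CPM and 2.31-fold (2.06 to 2.62) higher. Lgals3 and Trem2 were also higher in WT isoproterenol than in either saline library, and Adgre1 was not. Of the markers of resident macrophages, Timd4 was at 4.02, 3.53, 2.27 and 1.70 CPM, Lyve1 at 19.5, 15.5, 18.3 and 13.1 CPM and Folr2 at 12.3, 12.5, 13.1 and 14.5 CPM, none of them called. Monocyte and neutrophil markers had 4 of 9 higher (median 0.98, summed level 144, 113, 261 and 1173 CPM), of which Fn1 and Vcan are also matrix genes and make up most of that sum in every library. Ccr2, a receptor of recruited monocytes, was at 4.10, 4.79, 5.07 and 20.8 CPM and 3.54-fold (2.86 to 4.45) higher. Neutrophil S100a9 was at 1.09, 1.002, 1.88 and 1.60 CPM and not called. The part of macrophage number in the immune values was not tested.

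Chemokines and their receptors had 7 of 18 higher and 0 lower (median 0.86). Ccl8, a monocyte attractant, was at 0.897, 0.914, 1.25 and 7.51 CPM and 5.09-fold (3.39 to 8.19) higher. Cxcl16, a membrane-bound chemokine, was at 11.2, 9.93, 8.88 and 25.3 CPM and 2.46-fold (2.07 to 2.93) higher. Cx3cl1, fractalkine, was at 14.003, 15.3, 11.2 and 32.0 CPM and 2.45-fold (2.11 to 2.87) higher. In all 3 the KO isoproterenol library alone was high. Cxcl12, the most abundant of the list, was at 236, 221, 159 and 152 CPM and not called. Complement and acute phase genes had 8 of 17 higher and 0 lower (median 0.75). Serpina3n, an acute phase protease inhibitor, was at 6.32, 9.45, 67.8 and 359.8 CPM and 4.58-fold (4.33 to 4.86) higher, with both isoproterenol libraries above both saline libraries. Lcn2, a lipocalin that binds iron carriers, was at 1.13, 1.83, 2.46 and 11.3 CPM and 3.95-fold (2.92 to 5.52) higher. The C1q chains C1qa, C1qb and C1qc, which macrophages make, were higher by log2 ratios of 0.86 to 1.17. Of 12 serpins 7 were higher and 0 lower (median 0.75).

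Interferon-induced genes had 1 of 22 higher and 2 lower (median 0.08), or 3 and 0 with total counts. Mx1, an antiviral GTPase, was at 1.91, 1.65, 2.22 and 5.81 CPM (2.25-fold, 1.59 to 3.26, higher). Gbp6, a guanylate-binding protein, was at 31.6, 32.8, 25.2 and 14.6 CPM and 1.996-fold (1.72 to 2.32) lower with TMM only. MHC genes had 0 higher and 0 lower of 16, with a median of −0.03 that became 0.18 with total counts.

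Markers of other cells were given for the whole list. Endothelial markers had 0 higher and 0 lower of 16 (median −0.13, or 0.08 with total counts; summed level 2450.1, 2349.5, 2180.1 and 2147 CPM), with Pecam1 at 183, 161, 172 and 202 CPM. Smooth muscle and pericyte markers had 2 of 16 lower, Myh11 and Abcc9, and 0 with total counts (median −0.17, or 0.05). Lymphatic endothelial markers had 0 higher and 0 lower of 6, mast cell markers 0 and 0 of 2, and T and NK cell markers 0 and 0 of 2, the other 14 being below 1 CPM on average. Epicardial markers had 2 of 7 higher (median 0.70): Aldh1a2, which makes retinoic acid, at 6.08, 6.31, 5.74 and 21.8 CPM (3.27-fold, 2.67 to 4.05), and C3. Endocardial and atrial markers had 2 of 11 higher (median 0.16), Nppa and Clu, while the atrial myosin light chains Myl7 and Myl4 (88.1, 52.4, 68.7 and 99.9 CPM) and sarcolipin, Sln (16.4, 11.1, 12.3 and 15.9 CPM), were not called. Schwann and neuronal markers had 2 of 9 higher, Tubb3 and Uchl1, with the glial gene Sox10 (1.76, 1.65, 1.30 and 1.39 CPM) not called. Of 13 skeletal muscle markers only 2 were tested, the other 11 being below 1 CPM on average. Tnnt3, fast troponin T, was higher (0.585, 0.261, 0.724 and 6.39 CPM, 7.41-fold, 4.44 to 14.1) and Ckm lower with TMM only. Of the 13, 4 had 0 reads in both isoproterenol libraries.

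Adipocyte markers had 4 of 9 lower and 0 higher (median −1.15; 3 lower with total counts). Ucp1, the uncoupling protein of brown fat, was at 0.3901, 0.0435, 4.73 and 0.426 CPM (12.2-fold, 6.27 to 30.6, lower), with WT isoproterenol as the 1 high library. Pck1, of glyceroneogenesis, was at 3.35, 0.871, 6.03 and 1.01 CPM (6.75-fold, 4.24 to 11.8, lower), and Plin1, a coat protein of fat droplets, at 1.21, 0.523, 2.75 and 0.799 CPM (3.89-fold, 2.23 to 7.58, lower). Ucp1 and Plin1 passed the filter on level only through the WT isoproterenol library, which favours a lower call. Adipoq, the hormone of fat cells, was at 1.52, 1.09, 3.09 and 1.60 CPM and not called. Cidec was lower with TMM only. The list's summed level was 5832, 5959, 3964 and 3313 CPM, most of it from Lpl, which heart muscle also expresses, and its median under saline was −0.80. The part of fat cells in the values of lipid genes was not tested. Erythroid markers had 2 of 6 lower (median −0.49), Hbb-bt at 29.8, 10.9, 41.6 and 20.2 CPM (2.38-fold, 2.11 to 2.69) and Hba-a2 with TMM only. The globin genes come in near-identical pairs, so the split of their reads is uncertain. B and plasma cell markers had 3 of 6 higher (median 1.19), and 3 under saline: Igkc was at 2.73, 16.2, 3.23 and 12.5 CPM and Igha at 3.39, 21.0, 3.96 and 13.1 CPM, in both cases high in both KO libraries.

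The saline pair shares no library with the isoproterenol pair. It had 32 of 13041 genes higher and 26 lower. Of the 801 genes called under isoproterenol, 774 were not called under saline, 21 were called in the same direction and 6 in the opposite one. The 21 genes are 2.62% of the isoproterenol calls and 36.2% of the saline calls. The 555 higher genes had a median log2 ratio of 1.20 under isoproterenol and −0.08 under saline, with 208 above 0 under saline. The 246 lower genes had medians of −0.99 and −0.06, with 146 below 0 under saline. The isoproterenol medians follow from the rule for a call, so their distance from the saline medians is not a finding. Over all 13041 genes the saline median was −0.002, and the shares above and below 0 were not counted.

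Of the 21 genes with the same direction in both pairs 12 lie on chromosome 7 (57.1%), which holds 7.53% of the tested genes and P2ry6 itself. Higher in both on chromosome 7 were Plekha7, a junction protein, at 5.62, 22.0, 5.65 and 28.7 CPM (4.37-fold, 3.58 to 5.40 under isoproterenol), and the enzymes and channel Hddc3, Fah and Aqp8. Lower in both were P2ry6, Trim12a, Trim5, Trim30d, Trim34a, Gvin1, Cyp2e1 and Hbb-bt. Trim30d was at 3.74, 0.653, 4.73 and 0.906 CPM (5.90-fold, 3.59 to 10.8, lower), and since the Trim genes there are paralogs of one cluster the split of their reads is uncertain. Trim5 was at 1.99, 0.131, 3.09 and 0.107 CPM and 27.1-fold (8.92 to 283) lower, from 2 reads in KO isoproterenol. Like Ucp1 and Plin1, Trim5 passed the filter on level only through the WT isoproterenol library. Off chromosome 7 the higher genes were Nppb, Acta1, Abat, Igkc, Igha, Rps13-ps1 and Gm14121, and the lower ones Pck1 and Cidec. Rps13, Ddx3y, Xist, Abat, Hddc3, Fah, Aqp8, Cyp2e1, Trim34a and Gm14121 were outside the naming rule and were chosen after their values were seen.

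**Figure D5:**
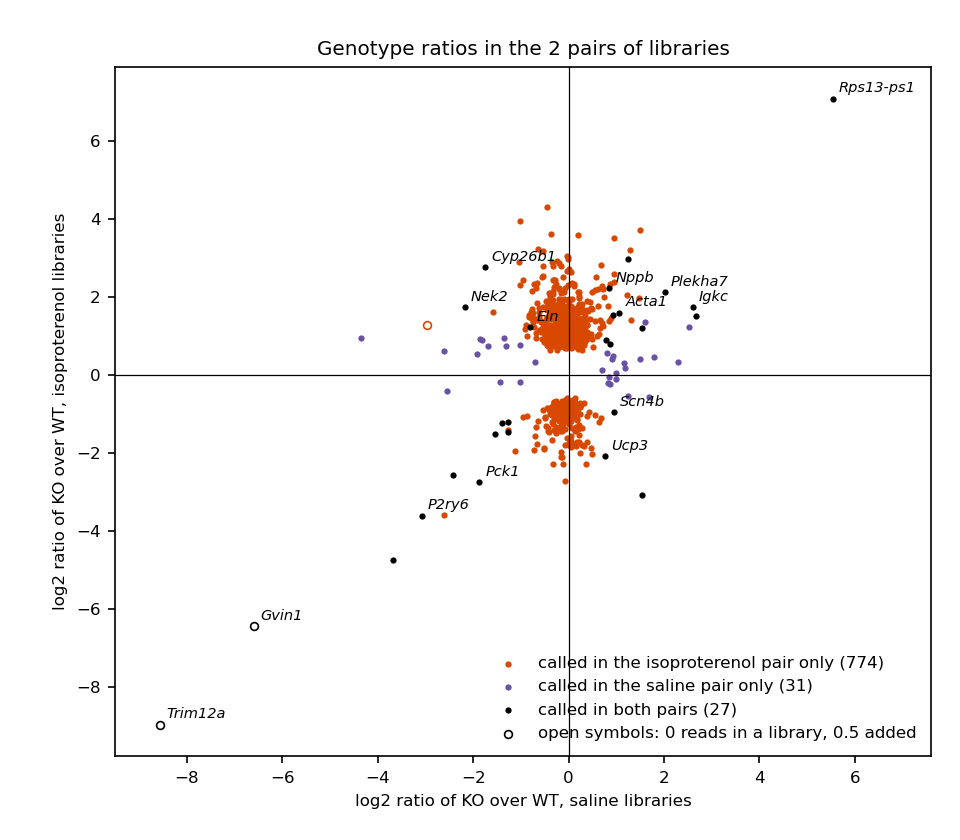
Log2 ratio of KO over WT in the saline pair (x axis) against the isoproterenol pair (y axis) for genes called in at least 1 pair; orange points are the 774 called under isoproterenol only, purple points those called under saline only, and black points those called in both. Open symbols have 0 reads in a library, so their ratio depends on the 0.5 added to each count. The 555 genes higher under isoproterenol have a median of −0.08 on the x axis and 1.20 on the y axis, where the call itself places them high.

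For the genes called in opposite directions the difference between the pairs was not tested. Cyp26b1, which degrades retinoic acid, was at 19.6, 5.62, 2.03 and 16.1 CPM: 3.36-fold (2.77 to 4.12) lower in KO under saline and 6.81-fold (4.97 to 9.74) higher under isoproterenol. Its WT isoproterenol level was the lowest of the 4 and its WT saline level the highest. Ucp3 ran the other way, 1.70-fold (1.60 to 1.80) higher under saline and 4.26-fold (3.49 to 5.26) lower under isoproterenol, as did Scn4b. Eln and Nek2, a centrosome kinase, followed the direction of Cyp26b1.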

How the data were processed

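RNA of heart ventricles was sequenced from 4 libraries, 1 each of WT saline, P2Y6 KO saline, WT isoproterenol and P2Y6 KO isoproterenol, prepared with a stranded mRNA kit per the labels' protocols. The deposited values are CPM, made by the authors from reads counted per gene with HTSeq on GRCm38.p4 (mm10), per the submitters' processing notes. For the aligner, annotation release and HTSeq settings the sources used here give nothing, so strand use in counting is unknown. Columns that name a genotype without a treatment were assigned to saline. All CPM values above 0 were whole multiples of 1 read within 0.01 reads, and the whole reads so recovered (18771198 to 25637369 per library) were used, with 0 columns left unmapped.

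Genes with a mean of 1 CPM or more over the 4 libraries were kept (13041). Libraries were scaled with TMM factors (edgeR 4.0.16, R 4.3.3), and 0.5 was added to each count for a ratio. Exact conditional 95% intervals (Clopper-Pearson, scipy 1.17.1, Python 3.11.15) cover counting error only, since PCR copies are not separate molecules and 1 library per group shows no spread between animals. A gene was called where the whole interval lay beyond 1.5-fold. Where a library had 0 reads, a floor of 3 reads was used and the ratio is a lower bound. The calculation was tested on simulated data. Gene positions are from GENCODE M21 (GRCm38), matched by Ensembl ID for 13011 of the 13041 genes. Promoters are from RefSeq on GRCm38.p6, with an entry for 9717 of the genes tested.

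The genes and lists were chosen with earlier results of these data known. Named genes were the 20 higher and the 20 lower with the interval bound farthest from no change, the called members of each list with up to 4 others of most reads, P2ry6, up to 12 genes called in the same and 12 in opposite directions in both pairs, and the 10 most abundant genes. Other list members, the further genes called in both pairs, Rps13, Ddx3y, Xist and the interferon-inducible GTPase family were named after their values were seen. Some genes within the rule are not reported here. The alternatives were DESeq2 1.42.0 size factors, total counts with and without mitochondrial genes, other filters on level, other thresholds, and CPM ratios with a pseudocount of 1 or 0.1.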

Additional observations from a re-analysis of the deposited data

Results flagged for a closer look

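For a few genes the KO to WT ratio was called in opposite directions in the isoproterenol and the saline pair. The difference between the pairs was not tested, since each group is 1 library. Cyp26b1 had a log2 ratio of 2.77 under isoproterenol and −1.75 under saline. Nek2, at 0.897, 0.174, 0.676 and 2.66 CPM, had 1.73 and −2.18. Its KO saline level lay close to the 0.131 CPM that 3 reads make in that library, so its saline ratio rests on few reads. Eln had 1.22 and −0.81. These 3 were higher in KO under isoproterenol and lower in KO under saline. In the other direction, Ucp3 had −2.09 under isoproterenol and 0.76 under saline, and Scn4b had −0.96 and 0.95. With total counts Scn4b was not called under isoproterenol.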

How the results depend on the processing

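The 555 genes higher in KO became 973 with total counts, 713 with total counts without mitochondrial genes, 556 with DESeq2 size factors, 648 with no filter on level and 295 at a mean of 10 CPM or more. They became 204 with a 2-fold threshold, 1309 with the ratio alone, and 1740 and 2188 from log2(CPM + 1) and log2(CPM + 0.1). The 246 genes lower in KO became 106 with total counts, 57 with a 2-fold threshold and 674 with the ratio alone, and stayed between 170 and 319 in the other settings. No result changed direction in a called gene under the scalings, and none could. Against TMM each other scaling shifts every log2 ratio of the isoproterenol pair upward by a constant. The shift was 0.21 with total counts, 0.087 without mitochondrial genes and 0.00093 with DESeq2 factors. Higher calls therefore could not be lost, and only the lower calls were put to a test. Of the 801 calls, 661 were kept with total counts (555 higher, 106 lower), 725 without mitochondrial genes and 801 with DESeq2 factors. Of the 264 called genes among those listed by name, 36 lost their call with total counts. The number of lists with a median above 0 was 34, and 33 to 40 in the alternatives. The genes called in the same direction in both pairs numbered 21, and 21 to 24 with other scalings. No paired analysis was possible because each group holds 1 library and the labels carry no replicate numbers, and for the same reason no library could be left out. Depth limits genes of low level, since 3 reads amount to 0.117 CPM in the deepest library (WT saline).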

Other observations

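Interferon-inducible GTPases guard cells against intracellular microbes, and their genes are induced mainly by interferon gamma. The immunity-related, guanylate-binding and very large GTPases were looked at after their values were seen, because several stood among the leading lower genes. The Mx GTPases are not among them, and Mx1 was called higher. Of 17 tested, 0 were higher and 5 lower in KO under isoproterenol (Gvin1, Igtp, Irgm2, Iigp1 and Gbp6), with a median log2 ratio of −0.30. Of all genes 4.26% were higher and 1.89% lower. The set was picked for its low members, so this count cannot show that the family was low. BC023105, Gm4841 and F830016B08Rik, which lie beside Iigp1 and were lower, are not among the 17. With total counts 4 were lower and the median was −0.09, and under saline 1 was lower, Gvin1. Igtp (ENSMUSG00000078853, GRCm38 chromosome 11, 58199556 to 58207591) was at 139.7, 119.9, 139.7 and 59.0 CPM and 2.74-fold (2.56 to 2.94) lower. Irgm2 (ENSMUSG00000069874, GRCm38 chromosome 11, 58199618 to 58222782) was at 202, 176, 192 and 89.2 CPM and 2.49-fold (2.35 to 2.64) lower. Iigp1 was at 274, 239, 248 and 115 CPM and 2.50-fold (2.38 to 2.63) lower. In these 3 genes the KO isoproterenol library alone was low. Igtp and Irgm2 overlap in the annotation, so their reads may be shared, and Irgm1, on the same chromosome, was at 81.2, 72.2, 69.0 and 49.9 CPM and not called.

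The promoters of Igtp and Irgm2 are shown because these neighbours were low together. The capitals mark a gamma-activated site, TTCNNNGAA, followed by an interferon-stimulated response element. Both stretches are from RefSeq on GRCm38.p6, plus strand: chr11:58199491-58199551 and chr11:58214882-58214942.
Igtp: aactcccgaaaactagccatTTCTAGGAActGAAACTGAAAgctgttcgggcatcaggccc
Irgm2: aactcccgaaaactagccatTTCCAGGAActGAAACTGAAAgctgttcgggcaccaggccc
The stretches have 61 bases each and are the same at 59 positions. Searched on both strands within 250 bases before the start, the gamma-activated site was found in 7.02% of all promoters, 5.86% of those of tested genes, 6.61% of those of the higher genes and 9.84% of those of the lower genes. The response element was found in 2.98%, 2.65%, 3.41% and 5.18% of the same sets. A match describes letters and not binding.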
